A study of Homo sapiens with 24 samples.

Results

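The phagocyte NADPH oxidase is described here through 7 of its genes, chosen by name from the 25680 genes listed for each cell line: CYBB, CYBA, NCF1, NCF4, RAC1, RAC2 and HVCN1. They were chosen because CYBB was known from these data to rise with the drug MI-503 in the lines with an MLL fusion and to fall in OCI-AML3, so the direction of CYBB with MI-503 is given below as a description with no test. All 7 were present in every table and passed the filter on low values in each line, which asked for at least 10 normalised reads in at least 3 libraries. The study measured polyA RNA in 3 established acute myeloid leukaemia lines grown in liquid culture, in 24 libraries forming 8 groups of 3. MV411 received MI-503 at 2.5 µM for 3 days, AC220 at 3 nM for 24 h, the combination of these, or DMSO for a time that was not given. MOLM13 and OCI-AML3 each received MI-503 at 2.5 µM or DMSO for 4 days. As background, MV411 and MOLM13 are lines with a fusion of MLL (KMT2A) and with FLT3-ITD, a duplication that keeps the FLT3 kinase active; OCI-AML3 has mutant NPM1 and its MLL genes are not fused. Contact between menin and MLL is blocked by MI-503, FLT3 is inhibited by AC220 (quizartinib), and DMSO is the solvent. How the triplicate cultures were separated was not described, so p-values measure the spread between libraries, which may be technical.

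The oxidase makes superoxide by passing electrons from NADPH in the cytosol to oxygen on the other side of the membrane. CYBB (gp91phox, also called NOX2) is the electron-carrying subunit and sits in the membrane with CYBA (p22phox), which stabilises it. On activation cytosolic subunits, among them NCF1 (p47phox, the organiser) and NCF4 (p40phox), move to the membrane together with the GTPase RAC2 or RAC1. HVCN1 is a voltage-gated proton channel that carries out the charge left behind by the electrons. The enzyme is known from neutrophils and monocytes, where it serves the killing of microbes, and its loss causes chronic granulomatous disease.

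Reads assigned to genes numbered from 23168887 to 72994481 per library, with the deepest in OCI-AML3. Levels are given as normalised reads, which are the reads of a gene divided by 1 median-of-ratios factor per library within its line, so that a change is relative to the median of all genes. Levels of different genes are compared per length, as RPKM, the standard measure of reads per kilobase of exon scaled to the reads assigned in the library. RPM is the same measure without the length. The deposited values of MOLM13 and OCI-AML3 carry other factors, on which the median of all genes changed with MI-503 by -0.54 in MOLM13 and -0.16 in OCI-AML3 on the log2 scale. In MV411 the deposited factors and the median-of-ratios factors were equal. All deposited values are named as normalised to ERCC, synthetic control RNA added per number of cells. In MOLM13 and OCI-AML3 the deposited scale may therefore be the one per cell. The deposited values of MV411 are, despite their name, on the scale of the median gene. Which scale reflects RNA per cell was not tested, and "higher" and "lower" below are relative to the median gene unless the deposited scale is named. Among replicates, OCI-AML3 MI-503 replicate 1 stood apart: its chi-square, divided by the degrees of freedom, was 8.92 and 8.72 against the other replicates, which gave 1.59 between them. MV411 combination replicate 1 did likewise, at 9.41 and 4.99 beside 2.55. Of the calls for the 7 genes, only those of CYBA changed without either library, and their values are given beside the results. All 6 defining myeloid markers (CD33, SPI1, MPO, PTPRC, LYZ and CSF3R) had reads in each line. In these bulk libraries a change in the share of cells expressing a gene and a change in RNA per cell cannot be told apart.

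On GRCh38 with GENCODE 29 annotation, CYBB spans chrX:37780011-37813461, CYBA chr16:88643283-88651152, NCF1 chr7:74773962-74789315 and NCF4 chr22:36860988-36878015. RAC1 lies at chr7:6374523-6403977, RAC2 at chr22:37225261-37244448 and HVCN1 at chr12:110627841-110704950. All are protein-coding. Neighbouring genes limit the counts. CYBB overlaps AF241726.2 on the same strand. NCF4 overlaps the antisense gene NCF4-AS1 and HVCN1 overlaps TCTN1, both on the opposite strand, and the sources do not say whether counting used strand. NCF1 has near-identical pseudogene copies, NCF1B and NCF1C, which share 42.1% of the 50-base words of its transcripts, the length of a read here. For RAC1 that share was 12.3%, with RAC1 pseudogenes, and it was 0 for CYBB, NCF4 and RAC2. Values of NCF1 are therefore uncertain as to the copy they come from, and those of its pseudogenes are given beside them.

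RefSeq start-site sequences (GRCh38.p14) were matched for 3 of the 7 genes, CYBB, CYBA and NCF1. Only these are shown, since none was found for the others. Each runs 5′ to 3′ over the 150 bases before the RefSeq start on the strand of the gene, with any TTCCTC in capitals. The GENCODE spans given above start further upstream, so by those spans part of each window lies inside the gene. TTCCTC is the reverse complement of GAGGAA, a core bound by the myeloid ETS factor PU.1, the product of SPI1. The windows are chrX:37779909-37780058 on the plus strand for CYBB, chr16:88651054-88651203 on the minus strand for CYBA and chr7:74773861-74774010 on the plus strand for NCF1.
CYBB: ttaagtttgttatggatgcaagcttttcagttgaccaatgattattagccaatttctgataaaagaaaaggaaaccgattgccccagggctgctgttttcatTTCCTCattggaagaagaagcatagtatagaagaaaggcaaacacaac
CYBA: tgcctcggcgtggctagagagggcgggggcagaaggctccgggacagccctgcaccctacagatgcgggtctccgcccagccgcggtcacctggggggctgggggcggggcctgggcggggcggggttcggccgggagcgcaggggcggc
NCF1: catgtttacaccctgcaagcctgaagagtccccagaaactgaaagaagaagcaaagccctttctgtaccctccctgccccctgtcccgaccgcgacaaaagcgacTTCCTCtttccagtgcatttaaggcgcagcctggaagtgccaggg

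GAGGAA was found once in CYBB, 48 to 43 bases before the RefSeq start, and once in NCF1, 45 to 40 bases before it. Each match was on the strand opposite to the gene, and by the GENCODE spans each lies inside the gene. GAGGAA was not found in the CYBA window, and 14.8% of 35116 RefSeq promoters of the same length hold it on either strand. The CCAAT box (CCAAT) occurred 3 times in CYBB, of which the match on the opposite strand directly follows the GAGGAA match, and it was found in 23.5% of promoters. The GC box (GGGCGG), searched on both strands as well, occurred 6 times in CYBA, with 2 matches sharing a base, and in 36.8% of promoters. The window was 37.3% G or C in CYBB, 78.7% in CYBA and 55.3% in NCF1, against a median of 60% over all promoters. These motifs were chosen with the sequences in view, and a match describes letters, not a bound site.

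The lines held the subunits in different proportions before any drug. With DMSO, MV411 contained RAC2 at 179.6 ± 4.37 RPKM, NCF4 at 124 ± 3.82 RPKM, RAC1 at 71.2 ± 1.51 RPKM and CYBA at 33.4 ± 1.62 RPKM (SD, n = 3). Below these stood HVCN1 at 15.4 ± 0.766 RPKM, NCF1 at 10.7 ± 0.305 RPKM and CYBB at 4.01 ± 0.403 RPKM, the lowest of the 7 genes. Each gene lay above the next in every library, so no neighbouring pair overlapped. In MOLM13 with DMSO RAC2 again led at 79.4 ± 3.26 RPKM, and CYBB was nearly absent, at 0.0913, 0.201 and 0.197 RPKM from 11, 23 and 22 reads.

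OCI-AML3 differed in having the catalytic subunit at the top. With DMSO CYBB stood at 187, 189.9 and 191 RPKM and NCF4 at 185 ± 1.94 RPKM, and their libraries overlapped. RAC2 followed at 60.3 ± 0.429 RPKM, CYBA at 44.7 ± 1.20 RPKM, RAC1 at 33.8 ± 0.859 RPKM, NCF1 at 12.3 ± 0.320 RPKM and HVCN1 at 3.27 ± 0.121 RPKM. HVCN1 was the lowest of the 7 genes there. The tables of the lines were normalised separately, so these levels set across lines are each relative to their own library totals and were not tested.

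**Figure D1:**
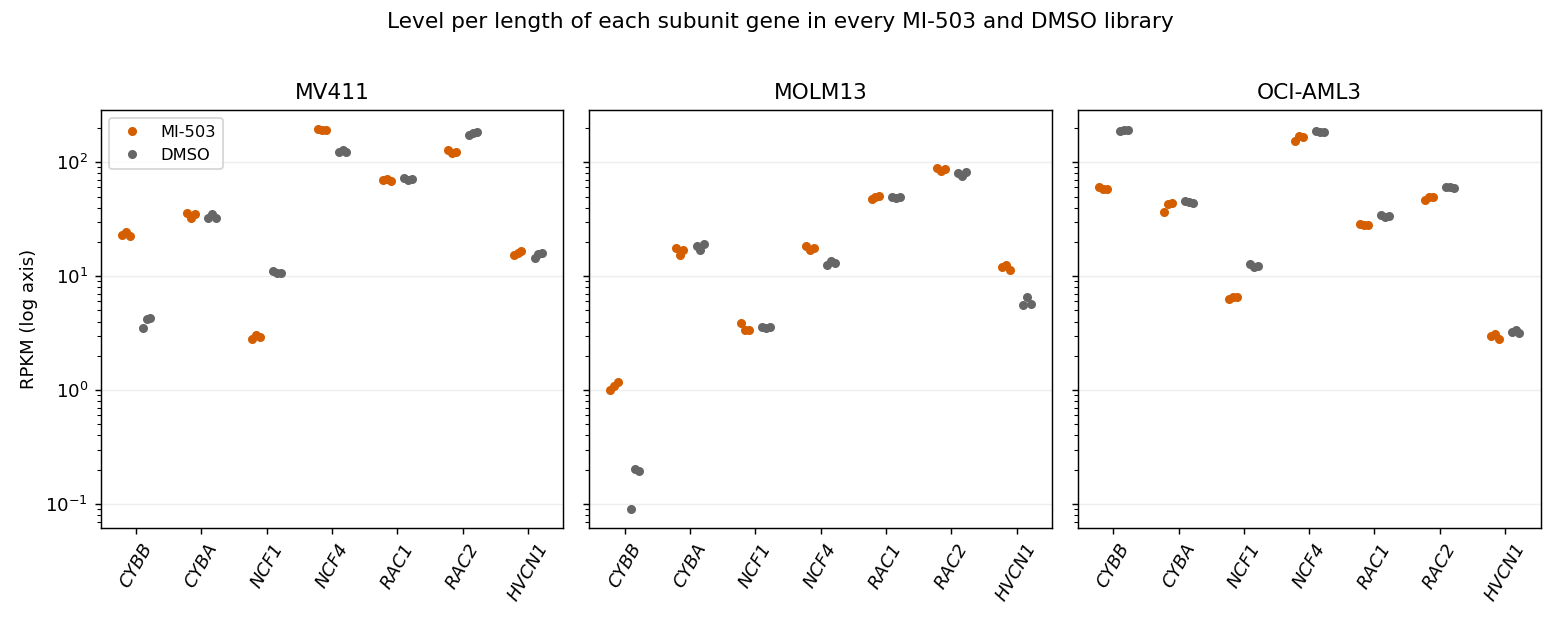
RPKM (log axis) of the 7 subunit genes in each MI-503 and DMSO library of MV411, MOLM13 and OCI-AML3 (points, 3 per group). CYBB is the lowest chosen gene in MV411 and MOLM13 with DMSO, at 4.01 and 0.163 RPKM on average, and stands at 189 RPKM in OCI-AML3 with DMSO, where HVCN1 is lowest at 3.27 RPKM.

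With MI-503 in MV411 the catalytic subunit went up while its membrane partner CYBA showed no change past the test. CYBB had 2554, 2778 and 2524 normalised reads with MI-503, against 395.9, 469.7 and 487.5 with DMSO, which is 5.81-fold (log2 change 2.54 ± 0.13, SE). All 3 MI-503 libraries lay above all 3 DMSO libraries. CYBA had 3075, 2756 and 3002 normalised reads with MI-503, against 2772, 2985 and 2787 with DMSO. Its groups overlapped, and the log2 change of 0.05 ± 0.06 did not pass (limma, Benjamini-Hochberg adjusted over all genes tested, adjusted p = 0.548).

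The cytosolic subunits moved in opposite directions. NCF1, the organiser, had 244.6, 268.9 and 256.1 normalised reads with MI-503, against 970.7, 923.4 and 944.7 with DMSO. Every MI-503 library was lower, and the log2 change was -1.88 ± 0.09 (limma adjusted p = 6.93e-15), or 0.272-fold. The pseudogenes did likewise, NCF1B with a log2 change of -2.17 and NCF1C with -2.08, and the number of NCF1 reads per 100 NCF1C reads was 248 ± 15.7 with MI-503 and 216 ± 21.9 with DMSO (SD, n = 3 each). NCF4, which binds phosphoinositides on the phagosome, had 8728, 8657 and 8612 normalised reads with MI-503, against 5427, 5720.1 and 5544 with DMSO. Its groups were apart and it rose by 0.64 ± 0.05 on the log2 scale (limma adjusted p = 8.79e-11).

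Of the GTPases only the haematopoietic form passed. RAC2 had 8240.4, 7713 and 7986 normalised reads with MI-503, against 11171, 11609.9 and 11936 with DMSO, all lower with the drug, for a log2 change of -0.54 ± 0.04 (limma adjusted p = 7.97e-11). RAC1, the form present in most cell types, had a log2 change of -0.04 ± 0.04 (limma adjusted p = 0.394), and the proton channel HVCN1 had 0.04 ± 0.05 (limma adjusted p = 0.443), both with overlapping groups. Apart from CYBB, the 7 genes thus held 1 that rose, 2 that fell and 3 that did not pass. Among all 14421 genes tested, 60.6% were called, 29.8% higher and 30.8% lower. The groups were fully apart for 4 of the 7 genes, CYBB included, against 66.6% of all genes. The median log2 change of the 7, CYBB included, was 0.04, beside -0.01 over all genes. Monocyte markers moved in the same libraries: 5 of the 6 tested were higher, and the 9 markers summed to 408 to 426 RPM with MI-503, against 279 to 307 with DMSO. Of neutrophil markers, 4 of the 5 tested were higher, with a sum of 1404 to 1591 against 636 to 715 RPM, while MMP8 and FCGR3B were at 0 in every MV411 library. The part of these markers in the subunit changes was not tested.

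Per length, these changes altered the order of the subunits in MV411. NCF4 led with MI-503 at 194 RPKM and with the combination at 215 RPKM, whereas RAC2 led with DMSO at 179.6 RPKM. With AC220 the libraries of NCF4, at 175 RPKM, and of RAC2, at 165 RPKM, overlapped. CYBB stood at 23.3 RPKM with MI-503, 1.38 RPKM with AC220, 19.5 RPKM with the combination and 4.01 RPKM with DMSO, and NCF1 at 2.91, 4.93, 5.05 and 10.7 RPKM in the same groups. With MI-503 and with the combination NCF1 was therefore the lowest of the 7 genes, and with AC220 and DMSO it was CYBB.

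**Figure D2:**
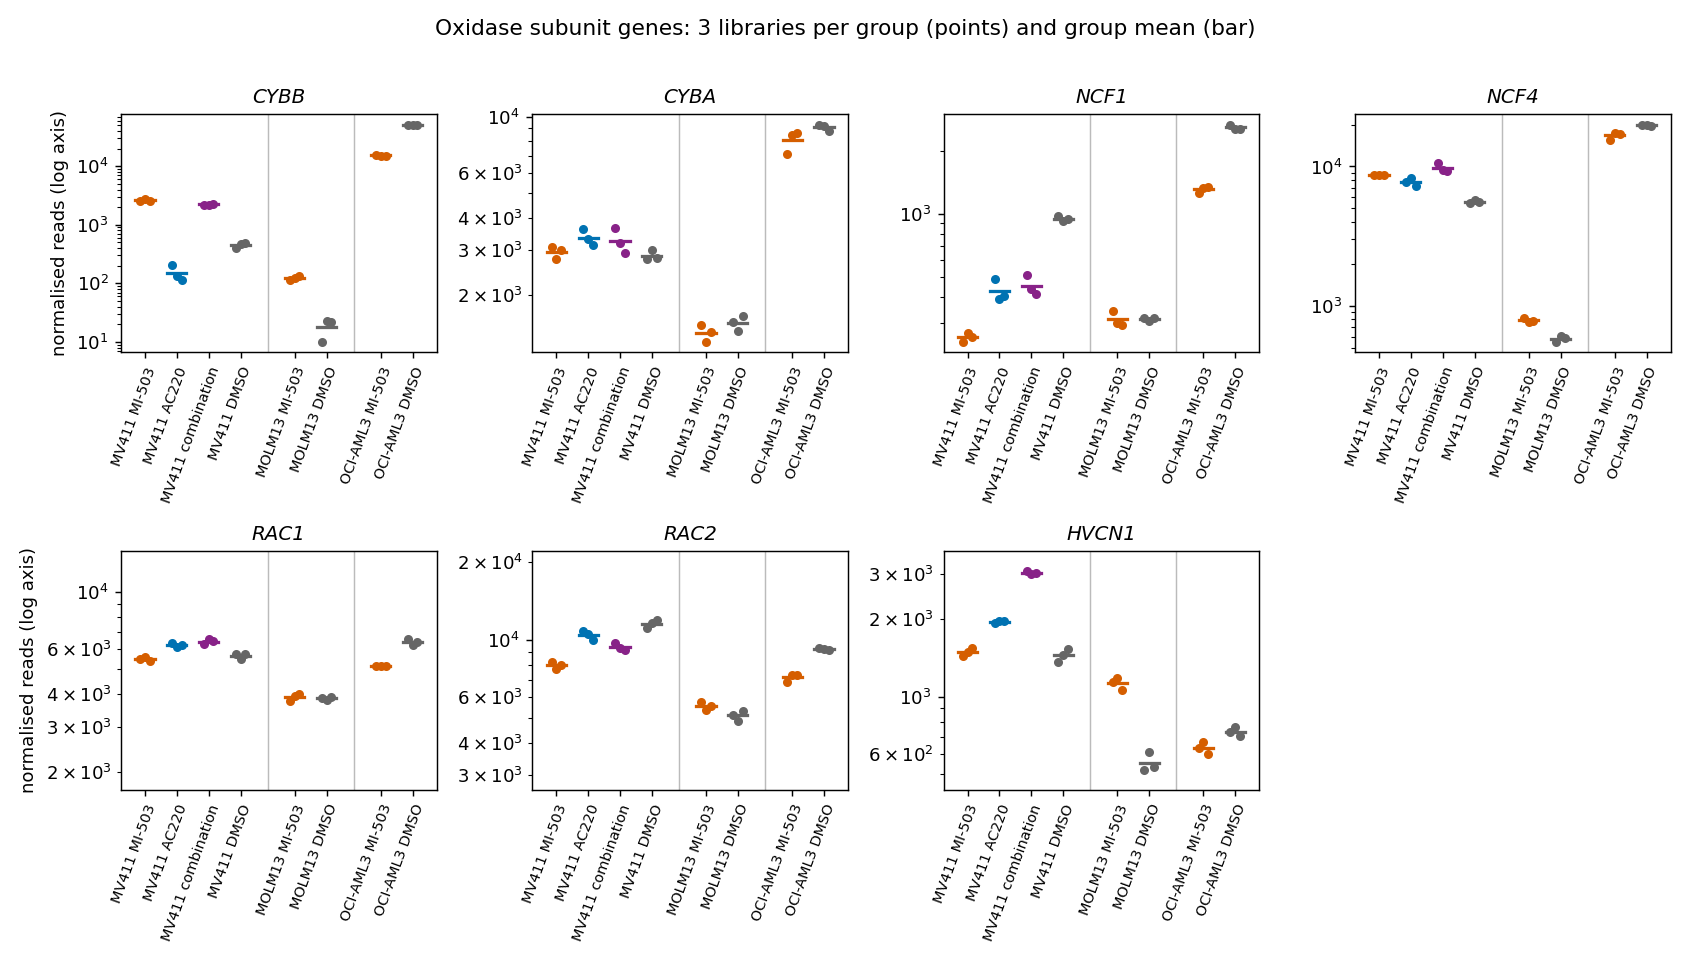
Normalised reads (log axis, a separate scale for each gene) of the 7 subunit genes in all 24 libraries (points) with group means (bars); grey lines part the 3 lines, which were normalised separately. With MI-503 CYBB stands above DMSO in MV411 and MOLM13 and below it in OCI-AML3, where all 7 chosen genes are lower with MI-503.

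In MOLM13, the other line with an MLL fusion, MI-503 went with more CYBB from a very low start. CYBB had 114, 122 and 132 normalised reads with MI-503, against 10.2, 22.6 and 22.2 with DMSO, a 6.76-fold difference (log2 change 2.76 ± 0.24, SE). The DMSO values rest on 11 to 23 reads, so the size of the ratio is less certain than its direction. CYBA had 1525, 1312 and 1430.1 normalised reads with MI-503, against 1558, 1437 and 1647 with DMSO, with overlapping groups. Its log2 change of -0.12 ± 0.05 did not pass (limma adjusted p = 0.0636), but without MI-503 replicate 1 it was -0.17 (adjusted p = 0.00524) and without DMSO replicate 2 also -0.17 (adjusted p = 0.0156).

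The remaining subunits of MOLM13 did not repeat the MV411 pattern. NCF1 had 344, 298 and 293 normalised reads with MI-503, against 315.8, 308 and 316 with DMSO, and no change passed (log2 change -0.01 ± 0.08, limma adjusted p = 0.914). Its pseudogenes NCF1B and NCF1C likewise did not pass, at 0.01 and 0.02. HVCN1 rose in MOLM13. It had 1138, 1178 and 1061 normalised reads with MI-503, against 518, 612 and 535 with DMSO. The groups were apart and the log2 change was 1.02 ± 0.06, 2.03-fold (limma adjusted p = 3.01e-10). NCF4 rose by 0.44 ± 0.05 (limma adjusted p = 1.74e-06) and RAC2 by 0.12 ± 0.03 (limma adjusted p = 0.00604, and 0.0756 with no variance trend), whereas RAC1 did not pass at 0.01 ± 0.03 (limma adjusted p = 0.732).

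Apart from CYBB, 3 of the other 6 genes were called higher in MOLM13 and 0 lower by limma, beside 59.9% of 13391 genes called, 29.9% in each direction. At an unadjusted p under 0.05 limma gave 1 gene lower, CYBA, and edgeR and DESeq2 gave 0 after adjustment. Libraries were fully apart for 4 of the 7, CYBB included, beside 64.9% of genes. The median log2 change of the 7, CYBB included, was 0.12, and that of all genes was -0.01. On the deposited scale, where the median gene was lower by 0.54, CYBB stood at 2.24, and of the other 6 genes only HVCN1 was called higher, at 0.49 (adjusted p = 2.6e-06), and 4 were lower: CYBA at -0.65, NCF1 at -0.54, RAC1 at -0.52 and RAC2 at -0.41, while NCF4 at -0.09 did not pass. All 4 monocyte markers tested were higher, with a sum over the list of 123 to 137 RPM with MI-503, against 56.4 to 63.5 with DMSO. Of the neutrophil markers tested 2 were higher and 2 lower, and LCN2, CEACAM8 and FCGR3B were at 0 in every MOLM13 library. What these markers contribute to the subunit values was not tested.

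In OCI-AML3, which has no MLL fusion, all 7 chosen genes were lower with MI-503. CYBB had 15488, 15022 and 15158 normalised reads with MI-503, against 50108, 51019 and 51167 with DMSO, or 0.3-fold (log2 change -1.74 ± 0.02, SE). The libraries within each group lay close together and the groups far apart. NCF1 had 1259, 1328 and 1337 normalised reads with MI-503, against 2659, 2545 and 2547 with DMSO, all lower with the drug, for a log2 change of -0.98 ± 0.04 (limma adjusted p = 7.37e-10). NCF1B and NCF1C fell by more, with log2 changes of -1.54 and -1.40. RAC2 had 6874, 7315 and 7310.1 normalised reads with MI-503, against 9318, 9273 and 9178 with DMSO, with no overlap (log2 change -0.37 ± 0.03, limma adjusted p = 4.37e-07).

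The other chosen genes fell by less in OCI-AML3. RAC1 had 5144, 5159 and 5157 normalised reads with MI-503, against 6534, 6231 and 6388 with DMSO (log2 change -0.31 ± 0.03, limma adjusted p = 1.21e-06). NCF4 changed by -0.24 ± 0.04 (limma adjusted p = 0.000126), HVCN1 by -0.21 ± 0.06 (limma adjusted p = 0.00539) and CYBA by -0.18 ± 0.06 (limma adjusted p = 0.0184). The call of CYBA was lost without DMSO replicate 1 (adjusted p = 0.0671), without DMSO replicate 2 (adjusted p = 0.0586) and with no variance trend (adjusted p = 0.109).

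Among 15682 genes in OCI-AML3 65.6% were called, 32.9% higher and 32.8% lower. Apart from CYBB, all of the other 6 genes were called lower and 0 higher by limma, with 0 higher also at an unadjusted p under 0.05 and after adjustment by edgeR and by DESeq2. The groups were fully apart for 69.7% of genes and for all 7 subunit genes, CYBB included. The median log2 change of the 7, CYBB included, was -0.31, beside -0.00131 over all genes. On the deposited scale the 7 values kept their sign, but the factors of the libraries spread widely there, with 1669 genes called in all instead of 10294. CYBB stood at -1.90 on it, and of the other 6 genes only NCF1 passed, at -1.14 (adjusted p = 0.000544). CYBA at -0.33, NCF4 at -0.40, RAC1 at -0.47, RAC2 at -0.53 and HVCN1 at -0.37 did not, with adjusted p between 0.24 (RAC2) and 0.526 (CYBA). Monocyte markers were mixed, 3 of 9 higher and 6 lower, and summed to 386 to 392 RPM with MI-503, against 589 to 615 with DMSO. All 4 neutrophil markers tested were higher, summing to 4014 to 4446 against 2854 to 2939 RPM, and all 10 of that list had reads in OCI-AML3. Their part in the falls was not tested.

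**Figure D3:**
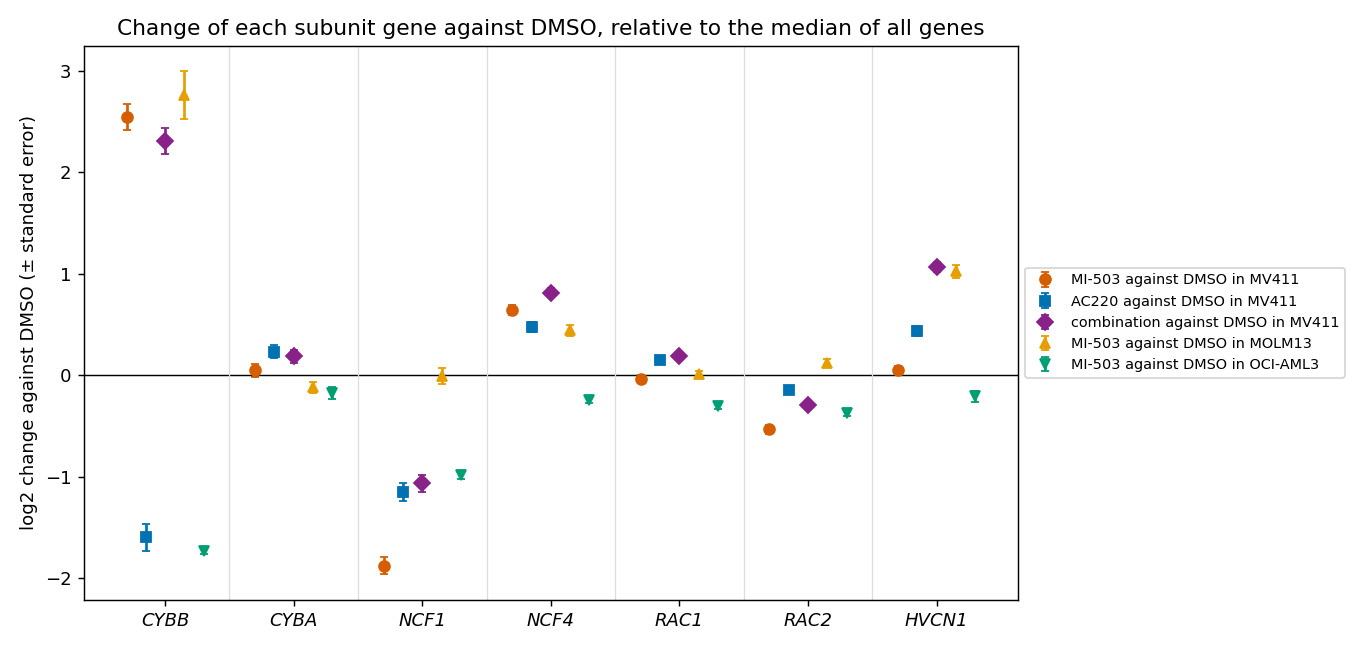
Log2 change against DMSO of each subunit gene (points; bars, standard error of the limma fit) for MI-503, AC220 and the combination in MV411 and for MI-503 in MOLM13 and OCI-AML3. Changes are relative to the median of all genes; CYBB ranges from -1.74 in OCI-AML3 to 2.76 in MOLM13, CYBA from -0.18 to 0.23.

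The difference of the MI-503 effect between lines was tested directly, over genes kept in both tables, with the caution that MV411 was treated for 3 days and the others for 4 days. CYBB, whose opposite directions led to the choice of genes, differed by 4.28 log2 units between MV411 and OCI-AML3 and by 4.50 between MOLM13 and OCI-AML3. Between the lines with an MLL fusion, MV411 and MOLM13, its effect differed by -0.22 ± 0.25. On the deposited scale it differed by 0.30, where the median difference of all genes was 0.52. Relative to the median gene, the CYBB difference was 0.13 without MOLM13 DMSO replicate 1, the library with 11 CYBB reads.

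Apart from CYBB, 4 of the other 6 effects were called higher in MV411 than in OCI-AML3 and 2 lower, beside 31.3% and 31.8% of 13709 genes (63.1% called in all). NCF4 differed by 0.88 ± 0.05 (limma adjusted p = 1.89e-11), RAC1 by 0.27 ± 0.04 (adjusted p = 2.48e-05) and HVCN1 by 0.25 ± 0.08 (adjusted p = 0.00804). NCF1 fell in both lines and by more in MV411, with a difference of -0.90 ± 0.07 (limma adjusted p = 1.14e-09), and RAC2 differed in the same direction by -0.17 ± 0.05 (adjusted p = 0.00600). CYBA, at 0.22 ± 0.08 (limma adjusted p = 0.0199), lost its call without MV411 MI-503 replicate 1 (adjusted p = 0.0625), MV411 DMSO replicate 3 (adjusted p = 0.0516) or OCI-AML3 MI-503 replicate 1 (0.14, adjusted p = 0.0532), and with no variance trend (adjusted p = 0.0834). On the deposited scale the median difference of all genes was 0.16 and CYBB differed by 4.44. Of the other 6 only NCF1 (-0.74, limma adjusted p = 0.0287) and NCF4 (1.04, adjusted p = 0.000645) passed. CYBA at 0.38, RAC1 at 0.43, RAC2 at -0.00692 and HVCN1 at 0.41 then did not, with adjusted p from 0.245 to 0.988.

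Between MOLM13 and OCI-AML3, 5 of the 6 effects other than that of CYBB were called higher in MOLM13, beside 32.4% of 13023 genes, with 30.5% called lower and 62.9% in all. After CYBB the largest difference was in HVCN1 (1.23 ± 0.09, limma adjusted p = 2.58e-09), followed by NCF1 (0.97 ± 0.08, adjusted p = 1.24e-08) and NCF4 (0.68 ± 0.06, adjusted p = 2.35e-08). RAC2 differed by 0.49 ± 0.05 and RAC1 by 0.32 ± 0.04, while CYBA did not pass at 0.05 ± 0.09 (limma adjusted p = 0.631), or -0.03 without OCI-AML3 MI-503 replicate 1. On the deposited scale the median difference of all genes was -0.37 and CYBB differed by 4.14. Of the other 6 only HVCN1 passed, at 0.86 (limma adjusted p = 0.0126). NCF1 at 0.60 (adjusted p = 0.0887), NCF4 at 0.31, RAC2 at 0.12, RAC1 at -0.05 and CYBA at -0.32 did not.

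The lines with an MLL fusion differed from each other in 4 of the 7 genes, 1 higher and 3 lower in MV411, beside 26.3% and 30.6% of 12840 genes (57% called in all). NCF1 showed the widest gap, with a difference of -1.87 ± 0.10 (limma adjusted p = 1.18e-13), since it fell in MV411 and did not pass in MOLM13. HVCN1 differed by -0.98 ± 0.08 (limma adjusted p = 7.71e-10), RAC2 by -0.66 ± 0.05 (adjusted p = 2.95e-10) and NCF4 by 0.20 ± 0.06 (adjusted p = 0.00426). On the deposited scale the difference of RAC2 was -0.13 and did not pass (limma adjusted p = 0.21), while RAC1 at 0.48 and CYBA at 0.70 were called higher in MV411. The median difference of all genes was 0.52 there, since MV411 has the same factors on both scales and MOLM13 does not. RAC1 thus lay below that median and CYBA above it. Relative to the median gene CYBA stood at 0.17 ± 0.08 (limma adjusted p = 0.0648). It passed when any of 4 libraries was left out, with adjusted p from 0.014 (without MOLM13 MI-503 replicate 1) to 0.0352 (without MV411 DMSO replicate 2).

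AC220 in MV411 moved CYBB the opposite way to MI-503. The comparisons in MV411 share the same 3 DMSO libraries, so their values are set side by side and not as independent observations. These DMSO libraries also entered the choice of CYBB, so its p-value against them is not independent of that choice. CYBB had 210.2, 134 and 114 normalised reads with AC220, against 395.9, 469.7 and 487.5 with DMSO. Every AC220 library was lower, and the log2 change was -1.60 ± 0.13 (limma adjusted p = 7.37e-11). CYBA had 3613, 3303 and 3126 normalised reads with AC220, against 2772, 2985 and 2787 with DMSO, all higher, and rose by 0.23 ± 0.06 (limma adjusted p = 0.00260).

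Among the cytosolic subunits NCF1 fell with AC220 as well, with 487.5, 392 and 403 normalised reads with AC220, against 970.7, 923.4 and 944.7 with DMSO. The groups were apart and the log2 change was -1.15 ± 0.09 (limma adjusted p = 1.62e-11), with -1.21 for NCF1B and -1.16 for NCF1C. NCF4 rose by 0.47 ± 0.05 (limma adjusted p = 7.2e-09). HVCN1 had 1933, 1963 and 1965 normalised reads with AC220, against 1358, 1450.4 and 1530 with DMSO, a rise of 0.44 ± 0.05 (limma adjusted p = 2.28e-08). The GTPases changed little and in opposite directions, RAC1 by 0.14 ± 0.04 (limma adjusted p = 0.00157) and RAC2 by -0.15 ± 0.04 (adjusted p = 0.00279).

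All 7 genes thus passed with AC220, 4 higher and 3 lower, CYBB among the lower. In that comparison 74.9% of genes were called, 37.7% higher and 37.3% lower. The groups of 77.8% of genes, and of all 7, were apart. Of monocyte markers 3 were higher and 3 lower among 6 tested, and their sum was 730 to 763 RPM with AC220, against 279 to 307 with DMSO. Neutrophil markers were higher in 4 of 5 tested, with a sum of 872 to 1013 against 636 to 715 RPM. Whether these markers bear on the subunit values was not tested.

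With the combination in MV411, CYBB stood near its level with MI-503 alone. It had 2201, 2211 and 2277 normalised reads with the combination, against 2554, 2778 and 2524 with MI-503 and 395.9, 469.7 and 487.5 with DMSO. Every combination library was below every MI-503 library and above every DMSO library. The log2 change was 2.31 ± 0.13 against DMSO (limma adjusted p = 4.98e-14) and 3.91 ± 0.13 against AC220 (adjusted p = 2.83e-17). Against MI-503 it was -0.23 ± 0.13 and did not pass (limma adjusted p = 0.117), although it did with edgeR on recovered reads (adjusted p = 0.0103) and with limma on only these 6 libraries (adjusted p = 0.000881). The MI-503 and DMSO libraries also led to the choice of CYBB, so its p-values against either are not independent of that choice.

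HVCN1 and NCF4 were higher with the combination than with either drug. HVCN1 had 3081, 2996 and 3005 normalised reads with the combination, against 1430.5, 1493 and 1549 with MI-503 and 1933, 1963 and 1965 with AC220. All 3 lay above every library of the single drugs, with log2 changes of 1.02 ± 0.05 against MI-503 (limma adjusted p = 6.98e-15), 0.63 ± 0.05 against AC220 (adjusted p = 1.27e-10) and 1.07 ± 0.05 against DMSO (adjusted p = 1.02e-15). NCF4 had 10673, 9402 and 9302 normalised reads with the combination, against 8728, 8657 and 8612 with MI-503 and 7689.7, 8201 and 7256 with AC220. Again all 3 combination libraries were the highest, by 0.81 ± 0.05 against DMSO (limma adjusted p = 2.24e-13), 0.17 ± 0.05 against MI-503 (adjusted p = 0.00331) and 0.34 ± 0.05 against AC220 (adjusted p = 2.72e-06).

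NCF1 stood at the level of AC220 and not of MI-503. It had 511, 435 and 411 normalised reads with the combination, against 487.5, 392 and 403 with AC220 and 244.6, 268.9 and 256.1 with MI-503. The combination overlapped with AC220 (log2 change 0.08 ± 0.09, limma adjusted p = 0.427) and lay above MI-503 by 0.81 ± 0.09 (adjusted p = 1.12e-08). Against DMSO it was lower, with a log2 change of -1.07 ± 0.09 (limma adjusted p = 4.5e-11). RAC2 was lower than with DMSO (log2 change -0.30 ± 0.04, limma adjusted p = 5.54e-07) and higher than with MI-503 by 0.24 ± 0.04 (adjusted p = 1.65e-05). RAC1 was higher than DMSO by 0.18 ± 0.04 (limma adjusted p = 0.000126), and CYBA by 0.18 ± 0.06 (adjusted p = 0.0121). The CYBA call was lost without combination replicate 1 (0.10, adjusted p = 0.112) and with no variance trend (adjusted p = 0.0684).

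Against DMSO the combination thus had 5 of the 7 genes higher and 2 lower, beside 39.3% and 40.1% of all genes (79.4% called). The groups of 6 were apart, beside 79.3% of genes. CYBB, which led to the choice of genes, is counted among the higher and among those apart. Against MI-503, 5 were higher and 0 lower by limma, beside 34.9% and 33.6% of genes (68.5% called), and 6 were apart beside 70.6%. At an unadjusted p under 0.05 limma gave 6 higher and 0 lower. After adjustment DESeq2 gave 0 lower and edgeR 1 lower, CYBB. CYBA against MI-503, at 0.14 ± 0.06 (limma adjusted p = 0.0625), passed without MI-503 replicate 1 (adjusted p = 0.0476) or combination replicate 3 (adjusted p = 0.00445). Against AC220, 3 were higher, CYBB included, and 1 lower, beside 27.4% and 28.1% of genes (55.5% called), and 4 were apart beside 59.1%. All 6 monocyte markers tested and all 5 neutrophil markers tested were higher than with DMSO. The monocyte list summed to 970.3 to 1059.6 RPM with the combination, against 279 to 307 with DMSO, and its part in these changes was not tested.

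The interaction asks whether the combined change differs from the sum of the single changes on the log2 scale. It passed for 5 of the 7 genes, CYBB included, 4 higher and 1 lower, beside 20.9% and 21.6% of all genes (42.5% called). For CYBB the single changes of 2.54 and -1.60 sum to 0.94, and the combined change of 2.31 exceeded this by 1.37 ± 0.18. The MI-503 and DMSO values of CYBB led to the choice of genes, so no p is given for it here. For NCF1 the sum is -3.03 and the combined change was -1.07, an interaction of 1.96 ± 0.12 (limma adjusted p = 7.64e-12). HVCN1 exceeded its sum of 0.48 by 0.59 ± 0.07 (limma adjusted p = 2.89e-07), and RAC2 its sum of -0.68 by 0.39 ± 0.06 (adjusted p = 9.57e-06). NCF4 fell short of its sum of 1.11, with an interaction of -0.30 ± 0.07 (limma adjusted p = 0.00136). CYBA at -0.09 ± 0.09 (limma adjusted p = 0.436) and RAC1 at 0.08 ± 0.05 (adjusted p = 0.257) did not pass. In the combination, too, MI-503 was given for 3 days and AC220 for 24 h.

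**Figure D4:**
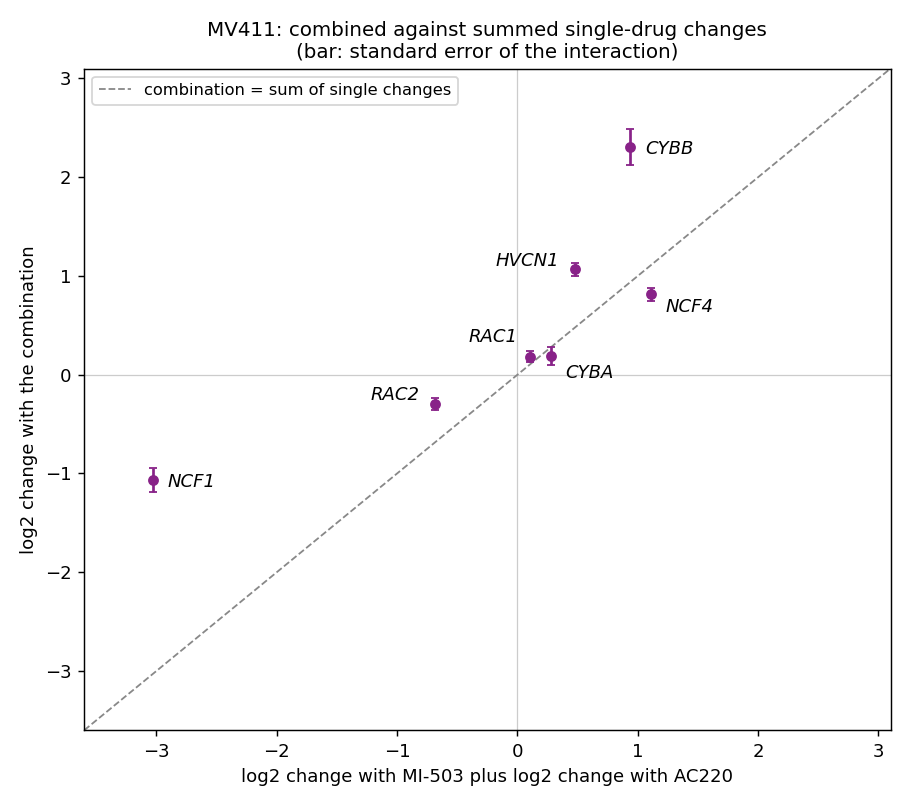
Log2 change with the combination against DMSO (vertical) and the sum of the log2 changes with MI-503 and with AC220 (horizontal) for each subunit gene in MV411; bars are the standard error of the interaction and the dashed line marks equality. CYBB, NCF1, HVCN1 and RAC2 lie above the line by 0.39 to 1.96, NCF4 lies 0.30 below it, and CYBA and RAC1 lie near it, with interactions of -0.09 and 0.08.

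Ratios of reads within 1 library do not depend on the scaling between libraries. For the membrane pair, CYBB reads per 100 CYBA reads averaged 89.3 ± 9.94 with MI-503, 4.51 ± 1.16 with AC220, 69.3 ± 8.71 with the combination and 15.8 ± 1.61 with DMSO in MV411 (SD, n = 3 each). None of these 4 groups overlapped another, and the nearest were the combination at 60.5 to 77.9 and MI-503 at 83.1 to 101. In MOLM13 the ratio was 8.69 ± 1.03 with MI-503 and 1.19 ± 0.477 with DMSO, and in OCI-AML3 it was 189.8 ± 23.4 with MI-503 and 558 ± 20.9 with DMSO. Neither of these lines had overlapping groups. The direction of CYBB with MI-503 led to the choice of genes, so the gaps between MI-503 and DMSO in this ratio are a description only.

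Between the cytosolic subunits, NCF1 reads per 100 NCF4 reads averaged 2.96 ± 0.152 with MI-503, 5.56 ± 0.780 with AC220, 4.61 ± 0.183 with the combination and 17.02 ± 0.871 with DMSO in MV411. The same ratio was 39.5 ± 2.18 with MI-503 and 54.0 ± 3.08 with DMSO in MOLM13, and 7.84 ± 0.244 with MI-503 and 13.1 ± 0.205 with DMSO in OCI-AML3. In all 3 lines every drug-treated library was below every DMSO library. Exact permutation of 3 against 3 libraries cannot give a two-sided p below 0.1, so no test of these ratios is given.

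RAC2 made up 59.2% ± 1.15 of the RAC1 and RAC2 reads with MI-503, 62.7% ± 0.861 with AC220, 59.5% ± 1.21 with the combination and 67.2% ± 0.950 with DMSO in MV411. Each treated library was below each DMSO library there. In MOLM13 the share was 58.7% ± 1.54 with MI-503 and 56.9% ± 0.779 with DMSO, and in OCI-AML3 58.2% ± 0.832 with MI-503 and 59.2% ± 0.549 with DMSO. The groups overlapped in MOLM13, where the lowest MI-503 library had 57.5% and the highest DMSO library 57.7%. They were narrowly apart in OCI-AML3, at most 58.6% with MI-503 and at least 58.8% with DMSO.

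**Figure D5:**
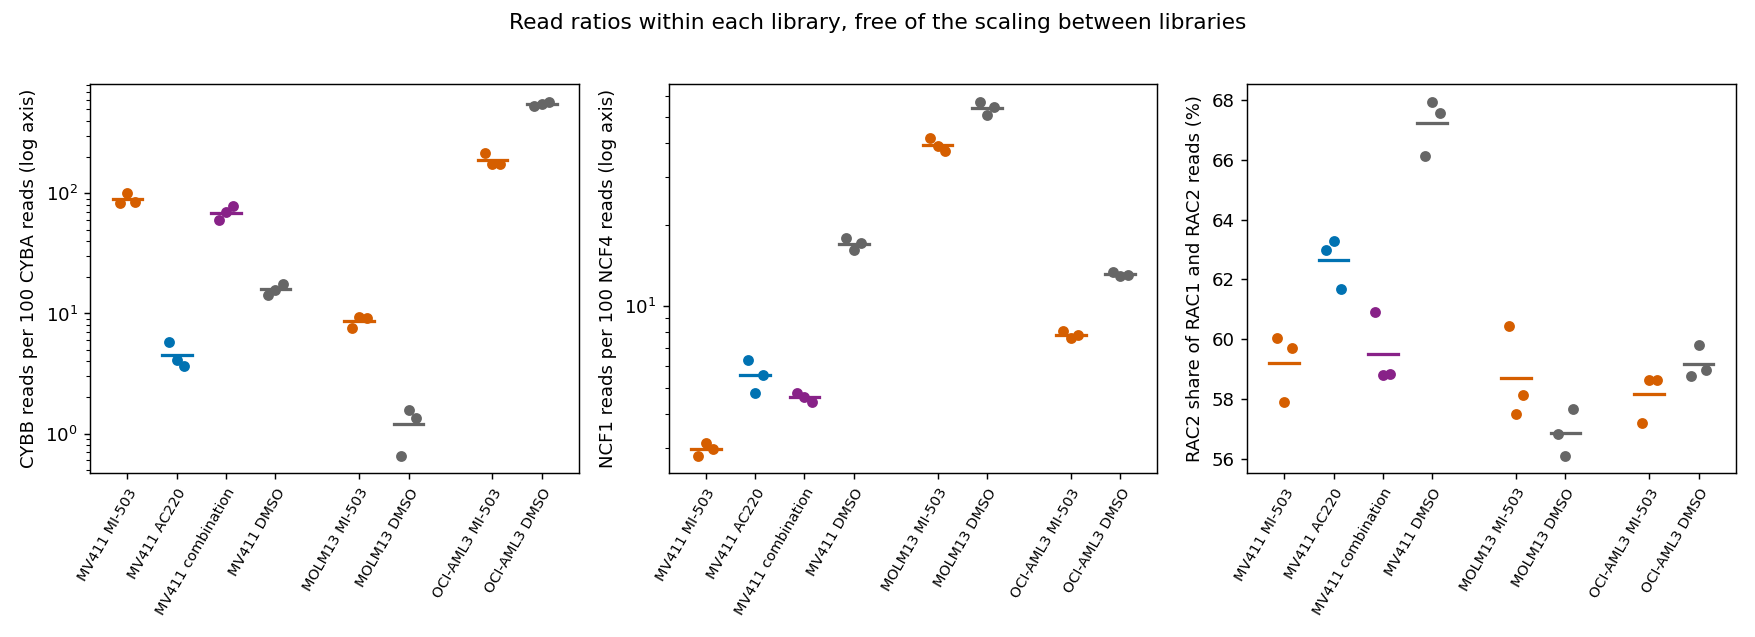
Ratios within each library (points, 3 per group; bars, means): CYBB reads per 100 CYBA reads and NCF1 reads per 100 NCF4 reads (log axes), and the RAC2 share of RAC1 and RAC2 reads in percent (axis not from 0). The CYBB to CYBA ratio runs from 1.19 in MOLM13 with DMSO to 558 in OCI-AML3 with DMSO, and the RAC2 share stays between 56.1% and 67.9%.

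Among 12080 genes tested in all 3 lines with a mean of at least 100 normalised reads in some group, those whose deviations from the DMSO mean of their line ran most like CYBB over the 24 libraries were MKRN2 (Pearson r = 0.944), CD101 (0.936), MEGF9 (0.934), ITGA6 (0.933) and NPTN (0.931). CD101 is a leukocyte surface protein, and its log2 change was 0.64 with MI-503, -1.68 with AC220 and 0.74 with the combination in MV411, 1.16 with MI-503 in MOLM13 and -1.20 in OCI-AML3. MKRN2 ranked first with changes of at most 0.21 in size. Of the other oxidase genes NCF4 had r = 0.681, HVCN1 0.604 and RAC1 0.356, while CYBA (0.0345), RAC2 (-0.0571) and NCF1 (-0.104) were near 0. The libraries share lines and treatments, so these coefficients are descriptions and carry no p.

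Other genes of oxidase assembly and priming gave mixed counts, to be read against the shares of all genes called. With MI-503 those were 29.8% higher and 30.8% lower in MV411, 29.9% each way in MOLM13, and 32.9% higher and 32.8% lower in OCI-AML3, with medians of all genes between -0.01 and 0.01. No list was refitted on the deposited scale, on which the median gene of MOLM13 was lower by 0.54, so that a smaller rise there holds only relative to that gene. Of 24 tested in MV411 with MI-503, 10 rose and 4 fell, and the largest changes were in the complement receptor C5AR1 (-1.57, limma adjusted p = 2.49e-05), the kinase PRKCB (0.82, adjusted p = 2.98e-14), which phosphorylates NCF1, and the formyl peptide receptor FPR1 (0.78, adjusted p = 0.0133). The median log2 change of this list was 0.10 in MV411, 0.34 in MOLM13 and 0.03 in OCI-AML3 with MI-503. In MOLM13, of 21 tested 15 rose and 4 fell, led by the Fc receptor FCGR2A (1.20), by PREX1 (1.09), an exchange factor for RAC proteins, and by PRKCB (0.84). In OCI-AML3, of 24 tested 10 rose and 8 fell, and the 3 largest changes were falls of receptors that prime the oxidase. FPR1 had a log2 change of -3.32 (limma adjusted p = 9.26e-10), C5AR1 -3.02 (adjusted p = 8.93e-07) and FPR2 -2.08 (adjusted p = 9.48e-05). With AC220 10 of 24 rose and 10 fell, with FPR2 at -3.24 and TIAM1, another RAC exchange factor, at -3.11. With the combination 13 rose and 10 fell, with TIAM1 at -2.98 and the Fc receptor FCGR1A at -1.58. Of all genes, 37.7% were higher and 37.3% lower with AC220, and 39.3% and 40.1% with the combination. C17orf62 (CYBC1), a chaperone of CYBB and CYBA named here after its values were seen, was higher with MI-503 in MV411 by 0.28 (limma adjusted p = 5.25e-06). Relative to the median gene it was higher in MOLM13 by 0.24 and in OCI-AML3 by 0.22 as well. On the deposited scale its MOLM13 values were 1281, 1449.8 and 1429 with MI-503, against 1790.1, 1747 and 1554 with DMSO, all lower with the drug, and the groups of OCI-AML3 overlapped. The gene overlaps HEXDC on the opposite strand.

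Of the transcription factors reported to act on oxidase genes, MI-503 in MV411 had 4 of 16 higher and 9 lower (median log2 change -0.30), in OCI-AML3 3 of 15 higher and 9 lower (median -0.25) and in MOLM13 6 of 15 each way (median 0.07). Beside these stand 29.8% of all genes higher and 30.8% lower in MV411, 32.9% and 32.8% in OCI-AML3 and 29.9% each way in MOLM13. In MV411 GATA2 (-2.74), HOXA9 (-1.88) and HOXA10 (-1.53) led, all lower (limma adjusted p = 1.02e-10, 9.74e-18 and 1.56e-16). In OCI-AML3 SATB1 (-1.06) and RUNX1 (-0.66) were lower and GATA2 (0.85) was higher. MOLM13 had GATA2 at -0.76, SATB1 at -0.66 and CEBPA at 0.53. With AC220 6 of 16 rose and 6 fell, GATA2 at -4.10, and with the combination 5 rose and 10 fell, GATA2 at -4.76, beside 37.7% of all genes higher and 37.3% lower with AC220, and 39.3% and 40.1% with the combination. SPI1, which encodes PU.1 and was named after its values were seen, changed by 0.15 in MV411 (limma adjusted p = 0.0460), 0.18 in MOLM13 (adjusted p = 0.0213) and -0.21 in OCI-AML3 (adjusted p = 7.53e-05) with MI-503. These changes hold only relative to the median gene, which on the deposited scale changed by -0.54 in MOLM13 and -0.16 in OCI-AML3. The values of SPI1 on that scale, with AC220 and with the combination are not given here.

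Genes that supply NADPH and genes that dispose of superoxide and peroxide were called in both directions. With MI-503, NADPH supply had 4 of 14 higher and 8 lower in MV411, 8 and 4 in MOLM13, and 8 and 3 in OCI-AML3. The shares of all genes were 29.8% higher and 30.8% lower in MV411, 29.9% each way in MOLM13, and 32.9% and 32.8% in OCI-AML3, and the counts of disposal genes and of other oxidases with MI-503 are to be read against the same shares. The pentose phosphate enzyme TKT rose in MV411 with MI-503 (0.56) and with the combination (1.20, limma adjusted p = 8.66e-18). Disposal genes had 7 of 15 higher and 6 lower with MI-503 in MV411, 2 higher and 9 lower with AC220, and 3 higher and 7 lower with the combination, where all genes were 37.7% higher and 37.3% lower with AC220 and 39.3% and 40.1% with the combination. The peroxiredoxin PRDX1 changed by -0.62, -1.31 and -1.98 in these comparisons (limma adjusted p = 9.92e-11, 2.37e-17 and 7.98e-21). In MOLM13 6 of 14 disposal genes were higher and 4 lower, led by MPO (1.32), and in OCI-AML3 12 of 15 were higher, led by PRDX2 (0.87), and 1 was lower, GPX3 (-1.12). With MI-503 the disposal list had medians of -0.02 in MV411, 0.02 in MOLM13 and 0.25 in OCI-AML3, and the NADPH supply list of -0.18, 0.11 and 0.09. Other NADPH oxidases and their partners had few reads: 4 of 11 listed genes could be tested in MV411, with 2 higher and 1 lower, 4 in MOLM13, with 1 higher and 2 lower, and 5 in OCI-AML3, with 1 each way.

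Markers of other cell types also moved with the drugs, at low sums. T and NK cell markers summed to 67.5 to 73.7 RPM with MI-503, 39.5 to 42.0 with AC220, 88.2 to 97.5 with the combination and 35.0 to 35.2 with DMSO in MV411, of which 1 of 6 could be tested. In MOLM13 they summed to 30.1 to 33.8 RPM with MI-503, against 10.8 to 11.0 with DMSO. B cell markers summed to 2.97 to 3.48 RPM with MI-503, against 6.29 to 6.95 with DMSO in MV411, where all 4 tested were lower, and to 35.1 to 39.6 against 53.0 to 54.5 RPM in MOLM13. Erythroid and megakaryocyte markers summed to 8.72 to 10.1 RPM with MI-503 and 8.75 to 11.6 with the combination, against 33.1 to 35.7 with DMSO in MV411, where both tested were lower. Epithelial and fibroblast markers reached at most 28.3 RPM, in MOLM13 with DMSO. Of the 6 myeloid markers, 5 were called higher and 1 lower with MI-503 in MV411, and all 6 higher in MOLM13. In OCI-AML3 2 were higher and 3 lower. These marker counts with MI-503 stand beside 29.8% of all genes higher and 30.8% lower in MV411. The shares were 29.9% each way in MOLM13, and 32.9% higher and 32.8% lower in OCI-AML3. With the combination 40.1% of all genes were lower. The myeloid markers summed to 7636 to 7993 RPM with MI-503 and 1864 to 1954 RPM with DMSO in MV411. In MOLM13 that sum was 1145 to 1264 RPM with MI-503 and 592 to 605 RPM with DMSO, and in OCI-AML3 it was 1712 to 1781 RPM with MI-503 and 1851 to 1897 RPM with DMSO. The part of all these markers in the subunit changes was not tested.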

How the data were processed

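RNA of 24 libraries from 3 cell lines was analysed. Per the labels, each library took the same quantity of ERCC control RNA per cell number, and reads were paired and 50 bases long. Per the submitters' processing notes, DESeq version 2 and hg38 were used. The aligner, the counting program and the annotation are not given in the sources used here. The deposited values are a normalised signal per gene: in every library they equalled whole reads divided by 1 factor (100% within a tolerance of 0.001), so reads could be recovered. The authors' factors equalled median-of-ratios factors in MV411 and differed from them in MOLM13 and OCI-AML3, so all 3 lines were put on median-of-ratios factors, with the deposited scale as an alternative.

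Each comparison was fitted with limma 3.58.1 in R 4.3.3 on log2(value + 1) with a variance trend, two-sided, over genes with at least 10 in at least 3 libraries, and called at a Benjamini-Hochberg adjusted p under 0.05. Fold changes on this scale understate those of low genes. The 12 MV411 libraries shared 1 fit. Line differences were differences of MI-503 minus DMSO differences in a joint fit of 12 libraries. Recovered reads were also tested with edgeR 4.0.16 and DESeq2 1.42.0. RPKM used GENCODE 29 exon lengths. Scripts were tested on simulated data. Replicates differed by more than counting error (chi-square per degree of freedom 1.59 to 9.41 over 24 pairs), so no library was a copy of another. Whether replicates came from separate cultures cannot be told from this.

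The 7 genes, the lists and the tests were chosen with earlier results of these data known. The 7 were named in every comparison, up to 3 passing genes with the largest change of each list, and the 5 genes most like CYBB. Lists were other assembly and priming genes, other NADPH oxidases, superoxide and peroxide disposal, NADPH supply, transcription factors, and markers of myeloid cells, monocytes, neutrophils, T and NK cells, B cells, erythroid and megakaryocyte cells, and epithelial cells and fibroblasts. Some genes first listed are not reported here. Alternatives were the deposited scale, TMM factors, pseudocounts of 0.5 and 8, a minimum of 50, no filter, no variance trend, the 2 count tools, a replicate block, only the 2 groups compared, and each library left out.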

Additional observations from a re-analysis of the deposited data

Results flagged for a closer look

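The results of this section are those where the effect of 1 treatment differed between settings by a direct test with limma, either between lines or, in MV411, between the combination and the sum of its single drugs. Values are differences of log2 changes and no cause was tested. The interaction in MV411 was 1.37 for CYBB, 1.96 for NCF1, -0.30 for NCF4, 0.39 for RAC2 and 0.59 for HVCN1. The CYBB value is given as a description, since its MI-503 and DMSO values led to the choice of genes.

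The MI-503 effect in MV411 minus that in OCI-AML3 was 0.22 for CYBA, -0.90 for NCF1, 0.88 for NCF4, 0.27 for RAC1, -0.17 for RAC2 and 0.25 for HVCN1. Of these only NCF1 and NCF4 passed on the deposited scale. The call of CYBA was also lost with no variance trend (limma adjusted p = 0.0834) and without some single libraries.

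In MOLM13 minus OCI-AML3 the MI-503 effect was 0.97 for NCF1, 0.68 for NCF4, 0.32 for RAC1, 0.49 for RAC2 and 1.23 for HVCN1. Of these only HVCN1 passed on the deposited scale. In MV411 minus MOLM13 the MI-503 effect was -1.87 for NCF1, 0.20 for NCF4, -0.66 for RAC2 and -0.98 for HVCN1. The RAC2 difference did not pass on the deposited scale. The NCF1 value carries the limit of its pseudogenes, and the times of treatment differed, with 3 days in MV411 and 4 days in MOLM13.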

How the results depend on the processing

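The deposited scale moved the most. In OCI-AML3 it left 2 of the 7 genes and 1669 of all genes called, between MV411 and OCI-AML3 3 and 2688, and between MOLM13 and OCI-AML3 2 and 3218, with CYBB, whose direction led to the choice of genes, counted in each. On it, signs turned for NCF4 (-0.090), RAC1 (-0.52) and RAC2 (-0.41) in MOLM13, for CYBA (-0.32) and RAC1 (-0.051) in MOLM13 minus OCI-AML3, and for CYBB (0.30) and RAC1 (0.48) in MV411 minus MOLM13. In the last of these the median difference of all genes was 0.52. A pseudocount of 8 turned the last CYBB difference as well (0.17). Leaving out 1 library turned only values that had not passed or had no test, which then ranged as follows: NCF1 (-0.083 to 0.032) and RAC1 (-0.00554 to 0.041) in MOLM13, CYBB in MV411 minus MOLM13 (-0.40 to 0.13), CYBA in MOLM13 minus OCI-AML3 (-0.034 to 0.11), CYBA (-0.13 to 0.027) and NCF1 (-0.00701 to 0.18) for the combination against AC220, and the RAC2 share for the combination minus MI-503 (-0.394 to 0.715 percentage points). The cause was not tested. Of 1435 alternative values of single genes, 1380 kept both direction and call. Part of these could not change: in MV411 the deposited factors were those of the main fit. The replicate block and the fit with no variance trend kept each log2 change, so there only a call could move. With the replicate block MV411 MI-503 called 8701 genes and 4 of the 7, and only CYBA changed its call, for the combination against MI-503 (adjusted p = 0.0390), in MOLM13 (adjusted p = 0.0100) and between MV411 and MOLM13 (adjusted p = 0.0395). Samples with the same number correlated at -0.0814 to 0.121 in MV411, -0.00674 to 0.0698 in MOLM13 and -0.0497 to 0.0378 in OCI-AML3, so the numbers do not pair them. Depth limits CYBB in MOLM13 with DMSO, where it had 11 to 23 reads.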
